A study of Mus musculus with 10 samples.

Results

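The TNF, lymphotoxin, BAFF and RANKL axis was followed through 10 genes of the TNF superfamily in mouse popliteal lymph nodes, the nodes that drain the hind paw. They were taken by name from the gene table: the ligand genes Tnf, Lta, Ltb, Tnfsf13b (BAFF), Tnfsf13 (APRIL) and Tnfsf11 (RANKL), and the receptor genes Ltbr, Tnfrsf13b (TACI), Tnfrsf13c (the BAFF receptor) and Tnfrsf11a (RANK). All 10 were found among 54987 genes, and all 10 were among the 17010 genes that reached 0.5 FPKM in at least 3 libraries and were tested. FPKM is fragments scaled by gene length in kilobases and by a size set for each library, so levels of different genes within a library can be compared. RNA sequencing was done on nodes of male BALB/c mice of 6 to 8 weeks at day 15. Acu mice (n = 3 libraries, numbered 4, 6 and 28) had complete Freund's adjuvant, 0.1 ml under the skin of the right hind paw, and acupuncture, placed by the series title at the point ST36. AIA mice (n = 4, numbered 5, 10, 31 and 38) had the adjuvant, an oil emulsion with killed mycobacteria. Control mice (n = 3, numbered 15, 16 and 17) had the same volume of saline. Nodes were sequenced whole, so fewer cells of a type and less RNA per cell cannot be told apart in any value given here.

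TNF and lymphotoxin alpha are released as soluble ligands of the TNF receptors, and lymphotoxin alpha also joins lymphotoxin beta in a membrane complex that signals through the lymphotoxin beta receptor on stromal cells. That signal, made by lymphocytes, is needed for lymph nodes to form and for B cell follicles to keep their stroma. BAFF, made mostly by stromal and myeloid cells, keeps B cells alive through the BAFF receptor, while TACI binds both BAFF and APRIL and acts in antibody responses. RANKL on T cells and stroma signals through RANK on dendritic cells and osteoclast precursors, and osteoprotegerin is its soluble decoy.

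Each library held 13269763 to 18926894 reads, as recovered from the FPKM steps. The tissue label was checked against marker genes of B cells (10 genes) and T cells (10 genes). Acu 6, Acu 28, the 4 AIA libraries and Control 16 held all of them above 1 FPKM, with a mean log2(FPKM + 1) of 5.82 to 6.56 for B cell genes and 4.94 to 5.74 for T cell genes. The library labelled Acu 4 and the library labelled Control 17 did not match that label. Their B cell markers averaged 0.39 and 0.27, and all 10 decidual and uterine genes were above 1 FPKM in both, with a mean of 6.26 and 7.79 against 0.60 to 1.28 in the other 8 libraries. Trophoblast genes averaged 5.66 in the library labelled Acu 4 and 2.22 in the library labelled Control 17, against at most 0.15 elsewhere. Control 15 was also poor in lymphocyte genes (0.51 for B cells and 0.61 for T cells) and had the highest mean for adipocyte genes of all libraries, at 9.54. Control 16 had B cell genes within the range of Acu 6, Acu 28 and the AIA libraries, at 6.14. T cell genes averaged 5.35 to 5.74 in those 6 libraries, against 4.94 in Control 16. Adipocyte genes averaged 1.96 to 3.67 and skeletal muscle genes 0.81 to 6.76 in Acu 6, Acu 28 and the AIA libraries, against 7.53 and 8.89 in Control 16. The fold change of AIA over Control is therefore given for each gene in the fit of all 10 libraries, again without the libraries labelled Acu 4 and Control 17 (8 libraries), and also without Control 15 (7 libraries, with Control 16 as the sole Control library, assumed to vary like the others).

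Ltb, Tnf and Lta lie side by side on chromosome 17 (mm10), in a stretch of 10913 bases. Ltb runs from 35194439 to 35196320 on the plus strand, and Tnf (35199381 to 35202007) and Lta (35203165 to 35205351) follow on the minus strand after gaps of 3060 and 1157 bases. Their promoters are shown, with those of Tnfrsf13c on chromosome 15 and Tnfrsf13b on chromosome 11. All 10 members were matched in the RefSeq promoter table for GRCm38.p6. Each stretch is written 5′ to 3′ on the strand of its gene and ends before the start of the gene in the files. Capitals mark a kappaB match, GGGANNTTCC on either strand, or a TATA box, TATAAA, also searched on either strand.
Ltb promoter, chr17:35194257-35194438, plus strand: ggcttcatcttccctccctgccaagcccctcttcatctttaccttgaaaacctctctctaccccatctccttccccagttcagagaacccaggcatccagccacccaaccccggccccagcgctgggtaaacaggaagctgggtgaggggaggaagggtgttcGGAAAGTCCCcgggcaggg
Tnf promoter, chr17:35202008-35202257, minus strand: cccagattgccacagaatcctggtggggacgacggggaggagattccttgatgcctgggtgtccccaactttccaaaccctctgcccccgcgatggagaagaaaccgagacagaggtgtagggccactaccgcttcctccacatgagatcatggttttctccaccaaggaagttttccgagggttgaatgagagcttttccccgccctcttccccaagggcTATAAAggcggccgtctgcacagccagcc
Lta promoter, chr17:35205352-35205601, minus strand: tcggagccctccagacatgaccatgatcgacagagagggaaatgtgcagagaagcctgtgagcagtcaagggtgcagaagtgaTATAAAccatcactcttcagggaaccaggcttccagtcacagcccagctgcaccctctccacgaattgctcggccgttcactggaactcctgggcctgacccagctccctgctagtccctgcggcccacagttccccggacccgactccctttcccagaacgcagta
Tnfrsf13c promoter, chr15:82224381-82224630, minus strand: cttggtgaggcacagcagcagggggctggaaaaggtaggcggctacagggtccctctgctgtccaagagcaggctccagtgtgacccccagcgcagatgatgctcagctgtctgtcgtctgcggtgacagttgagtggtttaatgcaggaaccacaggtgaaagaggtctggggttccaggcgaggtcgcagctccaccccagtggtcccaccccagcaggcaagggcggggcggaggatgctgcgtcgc
Tnfrsf13b promoter, chr11:61126505-61126754, plus strand: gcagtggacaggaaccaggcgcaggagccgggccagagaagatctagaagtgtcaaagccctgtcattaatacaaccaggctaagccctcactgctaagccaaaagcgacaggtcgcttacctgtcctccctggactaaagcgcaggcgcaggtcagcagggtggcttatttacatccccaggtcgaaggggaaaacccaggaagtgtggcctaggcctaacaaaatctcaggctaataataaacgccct
Within 250 bases before the RefSeq start, the kappaB letters were in 1.21% of the 32851 promoters of the table, and among the members in Ltb alone, where the match stands on the opposite strand. The TATA box letters were in 12.4% of the same windows and in 3 members, Lta, Tnf and Tnfsf11. The promoters of Tnfrsf13c and Tnfrsf13b held neither in this window. The TATAAA match starts 29 bases before the gene in Tnf and 167 bases before the gene in Lta. These are matches of letters and were not tested as binding sites, and the searched motifs do not overlap in any promoter shown.

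In the nodes that held lymphocytes, Ltb was the most abundant of the 10 genes, ahead of Tnfrsf13c and Tnfrsf13b in Acu 6, Acu 28 and all 4 AIA libraries, and Tnfsf13 was the least. In Control 16 Ltb and Tnfrsf13c also took the first places, with Lta ahead of Tnfrsf13b. In the library labelled Acu 4, the library labelled Control 17 and Control 15, Ltbr was the most abundant instead. Tested over all 10 libraries, none of the 10 genes passed the threshold (limma, adjusted p under 0.05 over all genes tested) between AIA and Control, where 0.0235% of all genes were called. None passed between Acu and AIA or between Acu and Control, where 0% of all genes were called. At an unadjusted p under 0.05, 800 genes passed between Acu and AIA and 1275 between Acu and Control, and limma's voom on the recovered reads also called 0 in both. Without the libraries labelled Acu 4 and Control 17, Tnfrsf13b alone passed between AIA and Control, 1 of 10 members beside 13.5% of all genes.

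**Figure D1:**
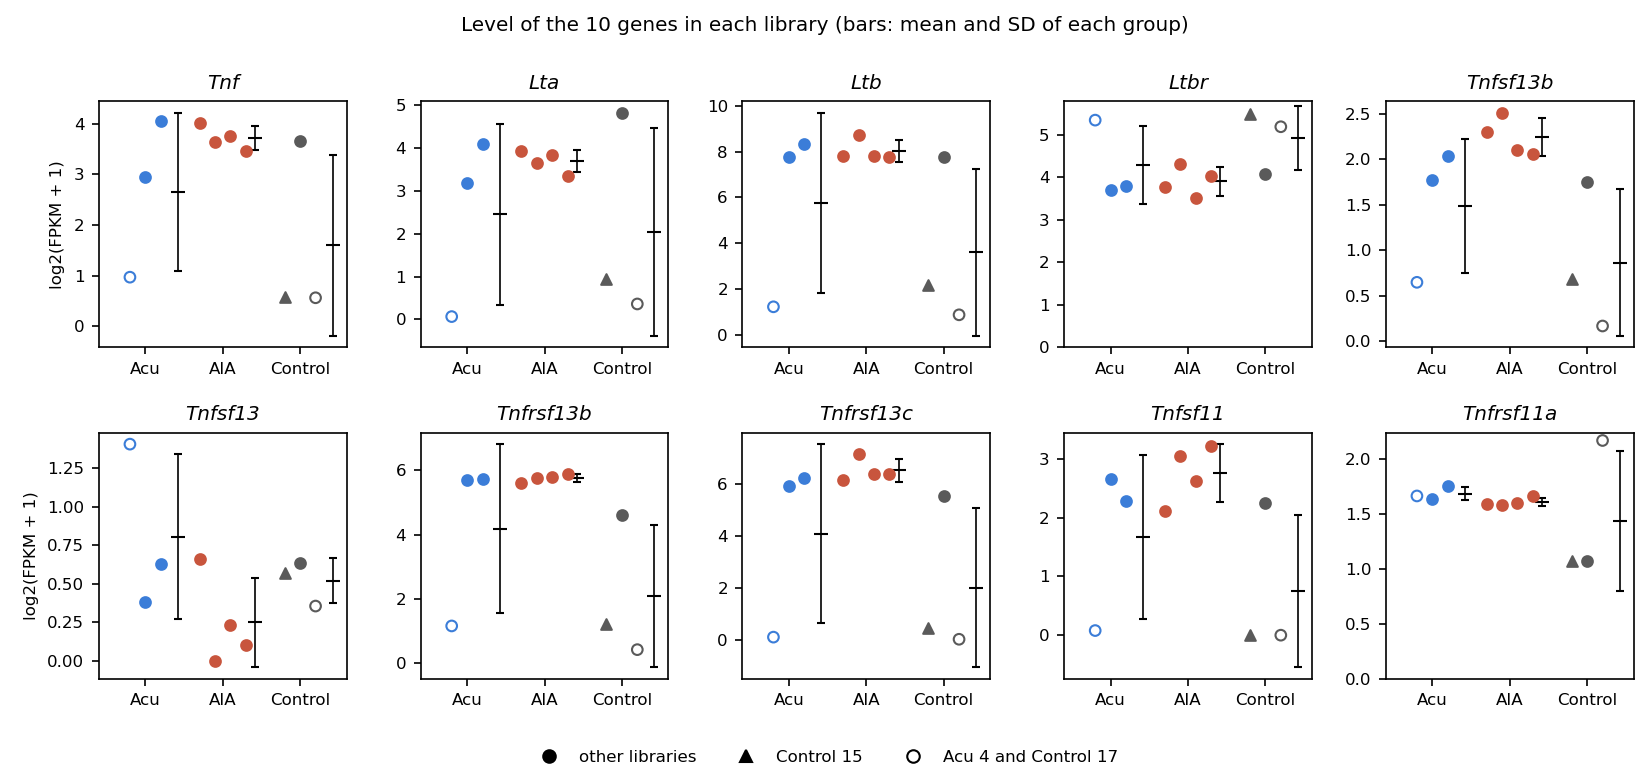
Level of each of the 10 genes as log2(FPKM + 1), 1 point per library, by group (Acu n = 3, AIA n = 4, Control n = 3), with the mean and SD of each group beside the points; open circles are the libraries labelled Acu 4 and Control 17 and triangles are Control 15. For Tnf, Lta, Ltb, Tnfsf13b, Tnfrsf13b, Tnfrsf13c and Tnfsf11 the open circles and the triangle sit below all other libraries, and for Ltbr they sit above them.

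Tnf, the founding ligand of the family and the target of arthritis drugs, had 0.958, 6.77 and 15.6 FPKM in the library labelled Acu 4, Acu 6 and Acu 28. It had 15.1, 11.5, 12.6 and 10.05 FPKM in AIA 5, 10, 31 and 38, against 0.482, 11.6 and 0.477 FPKM in Control 15, Control 16 and the library labelled Control 17. Control 16 thus lay within the range of the AIA libraries, and the groups overlapped. AIA over Control had a log2 fold change of 2.12 (SE 0.85, adjusted p = 0.166, limma) in 10 libraries and 1.60 (SE 0.75, adjusted p = 0.189) in 8. Against Control 16 alone it was 0.02, with a 95% interval of -1.08 to 1.12. Acu minus AIA was -0.21 in 8 libraries (-1.92 to 1.49), and Acu 6 and Acu 28 were the lowest and the highest of the adjuvant nodes, leaving aside the library labelled Acu 4. The values rest on 12 to 513 reads per library.

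Lta, the soluble lymphotoxin and partner of Ltb, had 0.0454, 8.13 and 16.2 FPKM in the library labelled Acu 4, Acu 6 and Acu 28. The AIA libraries 5, 10, 31 and 38 had 14.3, 11.5, 13.3 and 9.27 FPKM, against 0.924, 27.5 and 0.283 FPKM in Control 15, Control 16 and the library labelled Control 17. Control 16 was the highest of all 10 libraries, above each adjuvant node, while the other Control libraries were below each adjuvant node except the library labelled Acu 4. AIA minus Control was 1.65 on the log2 scale (SE 1.13, adjusted p = 0.376, limma) in 10 libraries and 0.80 (SE 0.89, adjusted p = 0.596) in 8. It turned to -1.18 (SE 0.44, adjusted p = 0.247) against Control 16 alone, so its direction rests on Control 15 and the library labelled Control 17. Acu minus AIA was -0.04 in 8 libraries (-2.08 to 2.0).

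Ltb, the membrane anchor of the lymphotoxin complex, had 1.37, 214 and 316 FPKM in the library labelled Acu 4, Acu 6 and Acu 28. It had 221, 424, 221 and 217 FPKM in AIA 5, 10, 31 and 38, against 3.61, 213 and 0.859 FPKM in Control 15, Control 16 and the library labelled Control 17. Every AIA library was above every Control library, but AIA 38 and Control 16 were close, and Acu 6 lay between them. The log2 fold change of AIA over Control was 4.41 (SE 1.86, adjusted p = 0.182, limma) in 10 libraries, 3.04 (SE 1.25, adjusted p = 0.144) in 8 and 0.24 (SE 0.56, adjusted p = 0.882) against Control 16 alone. Acu minus AIA was -2.26 (SE 1.86) in 10 libraries and 0.01 (SE 1.25) in 8. The microRNA gene Mir6973a, which lies inside Ltb on the same strand, was listed at 0 to 80.5 FPKM, and reads over it cannot be told apart from those of Ltb.

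Ratios between the 3 linked ligand genes compare levels within the same library. Lta was about level with Tnf in Acu 6 and Acu 28 (ratios of 1.20 and 1.04) and in AIA 5, 10, 31 and 38 (0.947, 1.00, 1.05 and 0.923). It stood above Tnf in Control 15 and Control 16, at 1.91 and 2.36. The library labelled Acu 4 and the library labelled Control 17 had ratios of 0.0474 and 0.593. Ltb exceeded Lta 26.4- and 19.4-fold in Acu 6 and Acu 28 and 15.4-, 36.9-, 16.6- and 23.4-fold in AIA 5, 10, 31 and 38, against 3.91- and 7.76-fold in Control 15 and Control 16. Ltb exceeded Tnf 31.7- and 20.3-fold in Acu 6 and Acu 28. In AIA 5, 10, 31 and 38 it did so 14.6-, 37.0-, 17.5- and 21.6-fold. Control 16, at 18.3-fold, lay within this AIA range, and Control 15 lay below it, at 7.48-fold. With 2 Control libraries, of which Control 15 rests on 13 Tnf and 21 Lta reads, these ratios are given as values with no test.

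**Figure D2:**
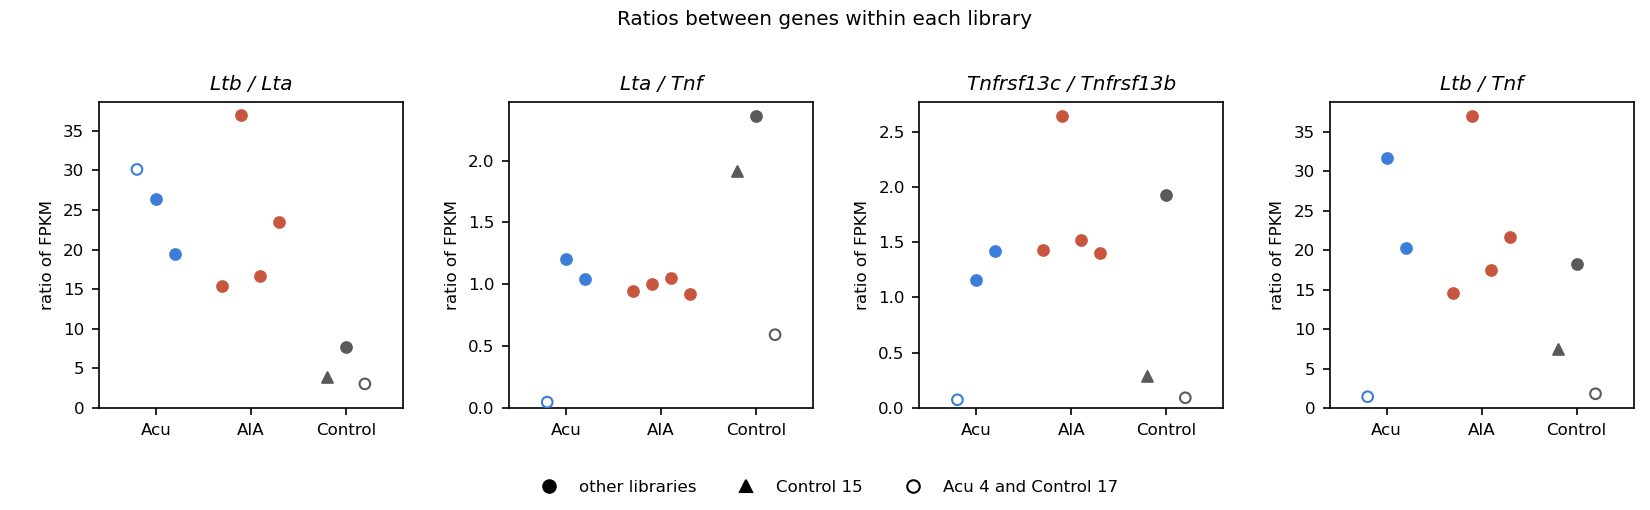
Ratio of FPKM between pairs of genes within each library, by group (Acu n = 3, AIA n = 4, Control n = 3), on linear axes that start at 0; open circles are the libraries labelled Acu 4 and Control 17 and triangles are Control 15. Lta over Tnf lies between 0.923 and 1.20 in Acu 6, Acu 28 and the AIA libraries, and at 1.91 and 2.36 in Control 15 and Control 16.

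Ltbr, the receptor through which the membrane lymphotoxin complex signals to stroma, ran the other way. It had 39.9, 12.0 and 13.0 FPKM in the library labelled Acu 4, Acu 6 and Acu 28. In AIA 5, 10, 31 and 38 it had 12.6, 19.0, 10.4 and 15.4 FPKM, against 44.5, 15.9 and 35.7 FPKM in Control 15, Control 16 and the library labelled Control 17. The 3 libraries poor in lymphocyte genes were the 3 highest, and Control 16 lay within the AIA range. On the log2 scale AIA minus Control was -1.02 (SE 0.49, adjusted p = 0.223, limma) in 10 libraries, -0.90 (SE 0.43, adjusted p = 0.201) in 8 and -0.21 (SE 0.38, adjusted p = 0.840) against Control 16 alone. The gene lies on chromosome 6 (125306571 to 125313885, minus strand).

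Tnfsf13b, the BAFF gene, was low in all libraries. It had 0.567, 2.41 and 3.10 FPKM in the library labelled Acu 4, Acu 6 and Acu 28. In AIA 5, 10, 31 and 38 it had 3.94, 4.71, 3.29 and 3.18 FPKM, against 0.602, 2.36 and 0.123 FPKM in Control 15, Control 16 and the library labelled Control 17. Each AIA library was above each Acu and each Control library. Tnfsf13b was the only member that did not overlap between Acu and AIA, beside 11.1% of all genes in 10 libraries and 17.1% in 8. Acu was lower, with Acu 28 close to AIA 38. The log2 fold change of AIA over Control was 1.38 (SE 0.44, adjusted p = 0.116, limma) in 10 libraries, 1.02 (SE 0.35, adjusted p = 0.0862) in 8 and 0.47 (SE 0.32, adjusted p = 0.545) against Control 16 alone. Acu minus AIA was -0.76 (SE 0.44, adjusted p = 0.746) in 10 libraries and -0.34 (SE 0.35, adjusted p = 0.984) in 8, neither past the threshold. Genes of macrophages, monocytes and dendritic cells averaged 4.18 and 4.53 in Acu 6 and Acu 28 and 4.15 to 4.64 in AIA, against 3.37 and 2.98 in Control 15 and Control 16. Their part in the level of Tnfsf13b was not tested.

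Tnfsf13, the APRIL gene, was near the limit of detection and gave 0 to 43 reads per library. It had 1.65, 0.301 and 0.548 FPKM in the library labelled Acu 4, Acu 6 and Acu 28. In AIA 5, 10, 31 and 38 it had 0.583, 0, 0.172 and 0.0719 FPKM, against 0.483, 0.553 and 0.279 FPKM in Control 15, Control 16 and the library labelled Control 17. AIA 10 had 0 reads, and 3 reads, the limit a count of 0 allows, would have been 0.162 FPKM. The groups overlapped, and the log2 fold change of AIA over Control was -0.27 (SE 0.28, adjusted p = 0.555, limma) in 10 libraries, -0.36 (SE 0.25, adjusted p = 0.381) in 8 and -0.40 (SE 0.33, adjusted p = 0.616) against Control 16 alone. Acu minus AIA was 0.56 (SE 0.28, adjusted p = 0.746) in 10 libraries and 0.26 (SE 0.25, adjusted p = 0.984) in 8. The gene lies on chromosome 11 (69682846 to 69685784, minus strand) wholly within the overlapping gene Tnfsfm13 of the same strand and the antisense gene Tnfsf13os, which reached 1.07 and 1.70 FPKM, so its level is uncertain.

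Tnfrsf13b, the gene for TACI, was the only member past the threshold in any of the 3 fits. It had 1.24, 50.4 and 51.9 FPKM in the library labelled Acu 4, Acu 6 and Acu 28. In AIA 5, 10, 31 and 38 it had 48.1, 52.9, 53.8 and 58.5 FPKM, against 1.35, 23.2 and 0.344 FPKM in Control 15, Control 16 and the library labelled Control 17. Every AIA library was above every Control library, and Acu 6 and Acu 28 were within the AIA range. B cell markers averaged 5.82 to 6.51 in AIA, against 0.51 in Control 15 and 6.14 in Control 16. Plasma cell markers averaged 5.80 to 6.01 in AIA, against 2.15 in Control 15 and 2.63 in Control 16. The part of either cell type in the level of Tnfrsf13b was not tested. In 8 libraries the mean was 53.3 ± 4.30 FPKM in AIA (SD, n = 4) against 12.3 ± 15.4 FPKM in Control (n = 2). The log2 fold change was 2.84 (SE 0.76, adjusted p = 0.0447, limma), with a 95% interval of 1.09 to 4.58. In 10 libraries it was 3.67 (SE 1.20, adjusted p = 0.118), and against Control 16 alone 1.12 (SE 0.32, adjusted p = 0.13). The call in 8 libraries is narrow. It was kept without AIA 10 (adjusted p = 0.04998) and without Control 16 (adjusted p = 0.00102), and was lost without any of the other 6 libraries, with adjusted p between 0.0795 and 0.13. The fold change in those 8 fits ran between 1.12 and 4.52.

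Tnfrsf13c, the gene for the BAFF receptor of mature B cells, had 0.0920, 58.5 and 73.5 FPKM in the library labelled Acu 4, Acu 6 and Acu 28. It had 68.8, 140, 81.6 and 82.2 FPKM in AIA 5, 10, 31 and 38, against 0.386, 44.7 and 0.0318 FPKM in Control 15, Control 16 and the library labelled Control 17. Each AIA library was above Control 16, Acu 6 lay between Control 16 and the AIA libraries, and Acu 28 was within the AIA range. The log2 fold change of AIA over Control was 4.49 (SE 1.60, adjusted p = 0.136, limma) in 10 libraries, 3.50 (SE 1.13, adjusted p = 0.0768) in 8 and 0.95 (SE 0.47, adjusted p = 0.399) against Control 16 alone. The library labelled Acu 4 had 3 reads of this gene and the library labelled Control 17 had 1, so both lie at or under the limit that a count of 0 allows.

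Both receptors were also set against the mean of the B cell markers, as a difference on the log2 scale. Tnfrsf13b stood at -0.55 and -0.84 in Acu 6 and Acu 28 and at -0.55, -0.07, -0.73 and -0.56 in AIA 5, 10, 31 and 38, against -1.54 in Control 16. Tnfrsf13c stood at -0.34 and -0.34 in Acu 6 and Acu 28 and at -0.04, 1.31, -0.14 and -0.08 in AIA 5, 10, 31 and 38, against -0.63 in Control 16. Control 16 was the lowest of the 7 libraries rich in lymphocyte genes by both measures, as a description of a single Control library. In Control 15 and the library labelled Control 17, Tnfrsf13b stood at 0.72 and 0.16 and Tnfrsf13c at -0.04 and -0.23. In the library labelled Acu 4 they stood at 0.77 and -0.26. By the same difference Ltb and Tnf in Control 16, at 1.60 and -2.48, lay within the AIA range. Lta in Control 16, at -1.31, was the highest of the 7 libraries.

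**Figure D3:**
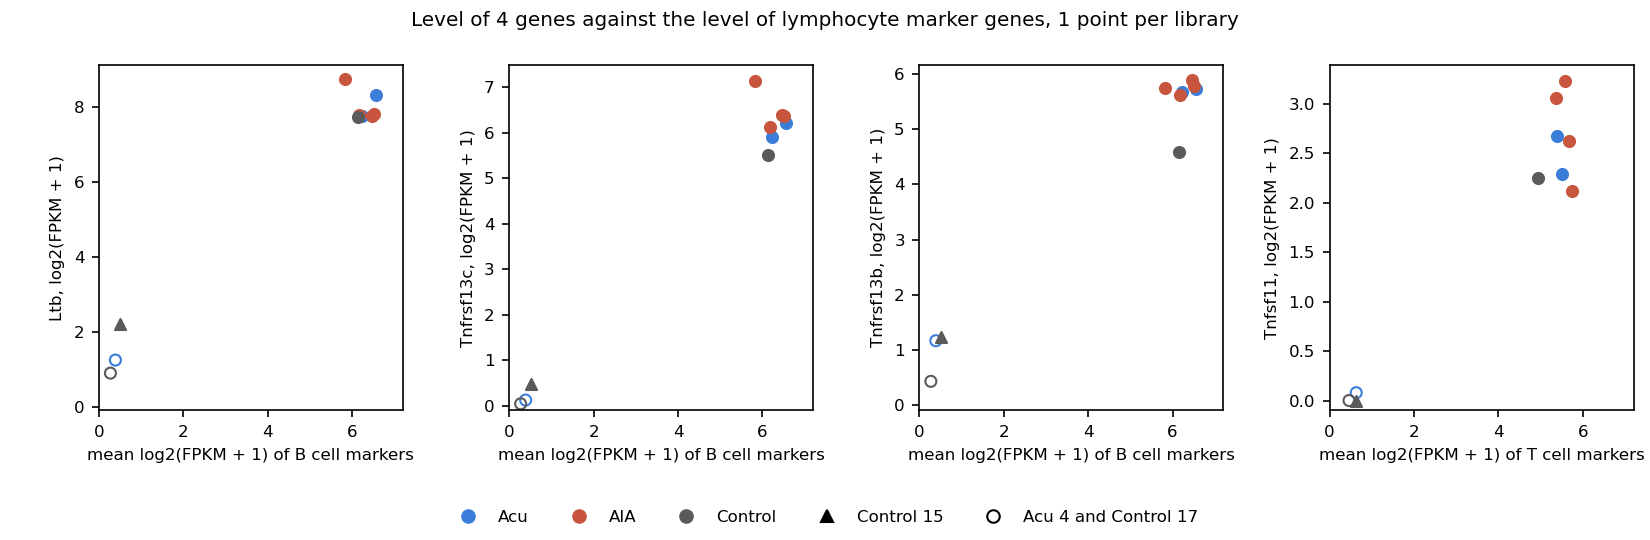
Log2(FPKM + 1) of Ltb, Tnfrsf13c and Tnfrsf13b against the mean log2(FPKM + 1) of 10 B cell marker genes, and of Tnfsf11 against that of 10 T cell marker genes, 1 point per library, colored by group; open circles are the libraries labelled Acu 4 and Control 17 and the triangle is Control 15. The points form a low cluster of those 3 libraries and a high cluster of 7, and within the high cluster Control 16 has the lowest Tnfrsf13b, at 23.2 FPKM.

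Tnfsf11, the gene for RANKL, had 0.0562, 5.36 and 3.88 FPKM in the library labelled Acu 4, Acu 6 and Acu 28. It had 3.35, 7.34, 5.16 and 8.39 FPKM in AIA 5, 10, 31 and 38, against 0, 3.76 and 0 FPKM in Control 15, Control 16 and the library labelled Control 17. In Control 15 and the library labelled Control 17, 3 reads would have been 0.0816 and 0.0874 FPKM. AIA 5 lay below Control 16, so the groups overlapped. The log2 fold change of AIA over Control was 2.01 (SE 0.72, adjusted p = 0.139, limma) in 10 libraries, 1.63 (SE 0.60, adjusted p = 0.109) in 8 and 0.47 (SE 0.47, adjusted p = 0.684) against Control 16 alone. The gene lies on chromosome 14 (78277445 to 78308043, minus strand).

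Tnfrsf11a, the gene for RANK, was steady across the adjuvant libraries. It had 2.17, 2.11 and 2.37 FPKM in the library labelled Acu 4, Acu 6 and Acu 28. In AIA 5, 10, 31 and 38 it had 2.02, 2.0, 2.04 and 2.17 FPKM, against 1.10, 1.10 and 3.50 FPKM in Control 15, Control 16 and the library labelled Control 17. Control 15 and Control 16, which differ widely in lymphocyte genes, had close Tnfrsf11a levels, resting on 108 and 102 reads. Their 95% counting intervals were 0.900 to 1.33 and 0.899 to 1.34 FPKM. All adjuvant libraries were above both, the library labelled Acu 4 included. In log2 fold change, AIA over Control was 0.17 (SE 0.31, adjusted p = 0.743, limma) in 10 libraries, where the library labelled Control 17 was the highest of all. In 8 libraries it was 0.54 (SE 0.23, adjusted p = 0.151), with a 95% interval of 0.02 to 1.05, and against Control 16 alone 0.52 (SE 0.27, adjusted p = 0.416). The ratio of Tnfsf11 to Tnfrsf11a was 2.54 and 1.63 in Acu 6 and Acu 28 and 1.66, 3.66, 2.53 and 3.86 in AIA 5, 10, 31 and 38, against 3.41 in Control 16, so it overlapped between the groups. Taking out Control 15 left the Tnfrsf11a fold change almost in place, unlike those of Tnf, Lta and Ltb.

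Tnfrsf11b, the gene for the decoy receptor osteoprotegerin, set the libraries apart. It had 99.5 FPKM in the library labelled Acu 4 and 94.3 FPKM in the library labelled Control 17. In the other 8 libraries it had 0.403 and 0.371 FPKM in Acu 6 and Acu 28 and 0.169, 0, 0.180 and 0.501 FPKM in AIA 5, 10, 31 and 38, against 0.0216 and 0.299 FPKM in Control 15 and Control 16. The 2 high libraries are those with every decidual gene above 1 FPKM, and the part of decidual cells in the level of Tnfrsf11b was not tested.

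**Figure D4:**
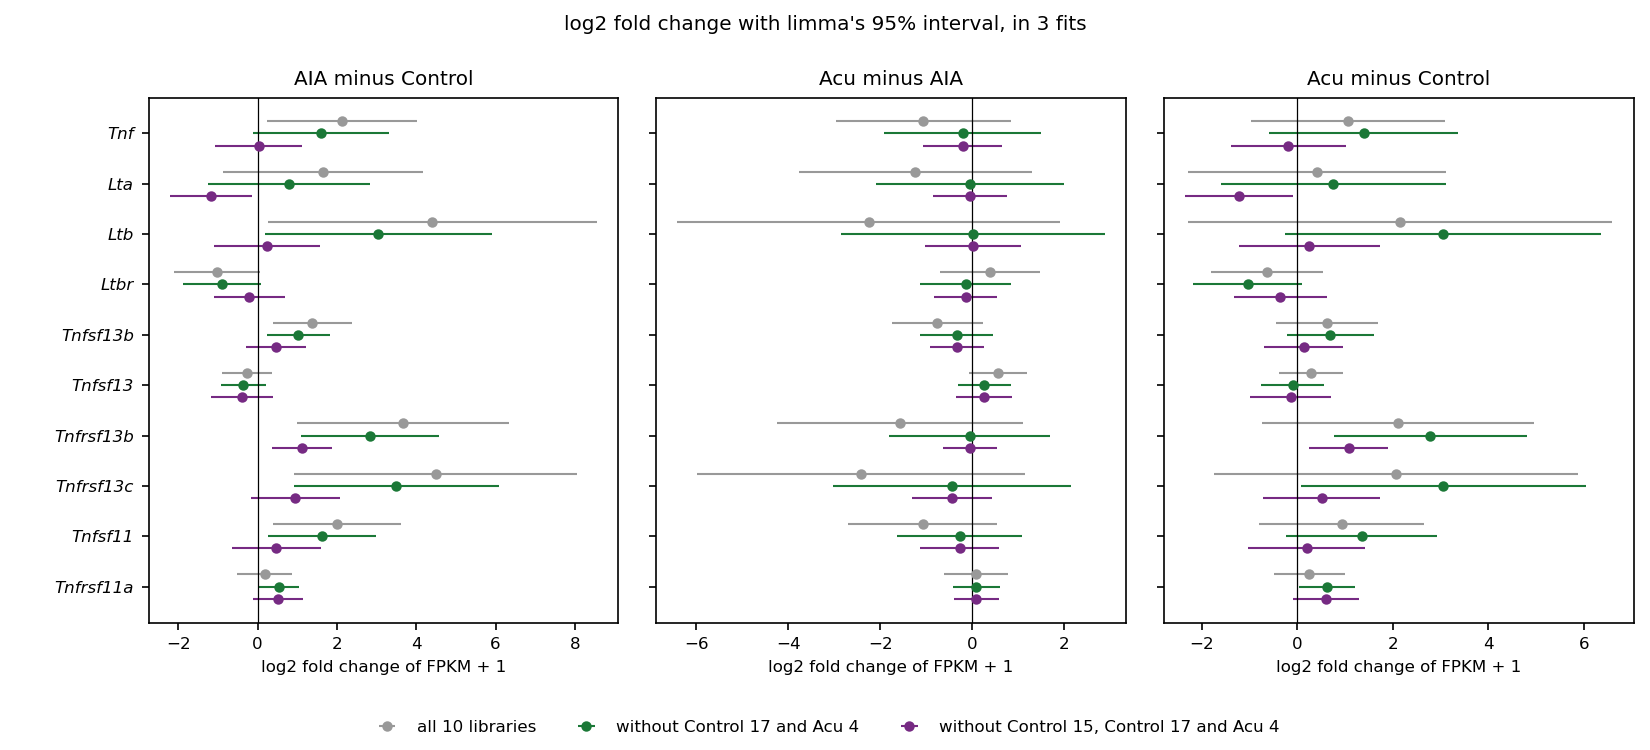
Log2 fold change of FPKM + 1 for each member with limma's 95% interval, for AIA minus Control, Acu minus AIA and Acu minus Control, in the fits of 10, 8 and 7 libraries; in the fit of 7, Control is 1 library assumed to vary like the others. For AIA minus Control the Tnfrsf13b intervals lie above 0 in each fit, at 3.67, 2.84 and 1.12. The intervals are not adjusted for the number of genes, and Tnfrsf13b did not pass the adjusted threshold in 10 libraries. The Lta fold change was 1.65, 0.80 and -1.18 in the fits of 10, 8 and 7 libraries. Its intervals span 0 in the fits of 10 and 8, at -0.88 to 4.18 and -1.24 to 2.84.

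Between AIA and Control, 4 of the 10 genes (Ltb, Tnfsf13b, Tnfrsf13b and Tnfrsf13c, each higher in AIA) did not overlap between the groups in all 10 libraries, beside 25.3% of all genes. In 8 libraries Tnfrsf11a joined them, 5 of 10 beside 38.8% of all genes. The median log2 fold change of the 10 genes was 1.83 in 10 libraries and 1.31 in 8, beside -0.07 and -0.01 over all genes tested. It was 0.35 against Control 16 alone, beside -0.03, where none of the 10 was called and 3.1% of all genes were. With Control 15 in place of Control 16 as the sole Control library, 8 members were called between AIA and Control, beside 18.6% of all genes. Ltb, Tnfrsf13c, Tnfrsf13b, Lta, Tnf, Tnfsf11 and Tnfsf13b were then higher in AIA, by 1.56 to 6.02 on the log2 scale, and Ltbr was at -1.62. Which Control library was read therefore set the size of these differences, and Control 15 and Control 16 also stood apart in B cell markers, at 0.51 and 6.14. The part of the lymphocyte content in the differences was not tested.

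Between Acu and AIA, the comparison of acupuncture with untreated arthritis, no member passed. In 8 libraries the fold changes ran between -0.44 for Tnfrsf13c and 0.26 for Tnfsf13, and their median was -0.10 beside 0.06 over all genes. The 95% intervals allow sizable differences either way. They were -0.43 to 0.60 for Tnfrsf11a, -1.13 to 0.45 for Tnfsf13b, -1.80 to 1.70 for Tnfrsf13b, -3.03 to 2.15 for Tnfrsf13c and -2.85 to 2.87 for Ltb. In the fit of 7 libraries, where the spread within Control does not enter, the intervals were -0.64 to 0.54 for Tnfrsf13b, -1.31 to 0.43 for Tnfrsf13c and -1.03 to 1.05 for Ltb. A p that misses the threshold does not show that the groups were alike. In all 10 libraries, with the library labelled Acu 4, the fold changes ran between -2.42 for Tnfrsf13c and 0.56 for Tnfsf13, and Tnfrsf13c and Tnfrsf13b, at -1.57, were not past the threshold (adjusted p = 0.746 for both, limma). The 1 gene of 10 that did not overlap between the groups, Tnfsf13b, stands beside 11.1% of all genes in 10 libraries and 17.1% in 8. In 8 libraries 0% of all genes were called, and 478 had an unadjusted p under 0.05.

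Between Acu and Control, no member passed in any of the 3 fits. The fold changes ran between -0.64 for Ltbr and 2.15 for Ltb in 10 libraries, between -1.04 for Ltbr and 3.06 for Tnfrsf13c in 8, and between -1.22 for Lta and 1.07 for Tnfrsf13b against Control 16 alone. In 10 libraries all 10 genes overlapped between the groups, beside 9.15% of all genes that did not. In 8 libraries 7 did not overlap, beside 61% of all genes, so the members' share lies near that of all genes. Ltb, Tnfsf13b, Tnfrsf13b, Tnfrsf13c, Tnfsf11 and Tnfrsf11a were the higher ones in Acu and Ltbr the lower one. The fold change of Tnfrsf13b was 2.78 (SE 0.88, adjusted p = 0.114, limma) in 8 libraries, where 4.39% of all genes were called. Against Control 16 alone it was 1.07 (SE 0.35, adjusted p = 0.272), and 0% of all genes were called in that fit for this comparison or for Acu against AIA. The 3 comparisons share libraries, so their fold changes are not independent.

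Of the wider pathway, 9 lists of genes were read in the fit of 8 libraries, where 4.29% of all genes rose in AIA over Control. In all 10 libraries no gene of these lists passed, and the fold changes of those named are set beside the values in 8 libraries and against Control 16 alone. Of 17 tested genes of TNF receptors and proximal signalling, 1 rose in AIA over Control and none fell, with a median of 0.45 beside -0.01 over all genes. Tnfrsf1b, the inducible TNF receptor of lymphocytes and myeloid cells, had 31 and 29.6 FPKM in Acu 6 and Acu 28. It had 21.1, 25.9, 18.1 and 29.1 FPKM in AIA 5, 10, 31 and 38, against 6.09 and 9.34 FPKM in Control 15 and Control 16. It rose by 1.49 in AIA over Control (SE 0.32, adjusted p = 0.0203, limma) and by 1.86 in Acu over Control (SE 0.36, adjusted p = 0.0307). In all 10 libraries, where the library labelled Acu 4 had 41.2 FPKM and the library labelled Control 17 had 78.6 FPKM, the highest of all, these were 0.42 (adjusted p = 0.722) and 0.94 (adjusted p = 0.786). Against Control 16 alone they were 1.19 (adjusted p = 0.150) and 1.56 (adjusted p = 0.165). Tnfrsf1a, the other TNF receptor, had a fold change of -0.94 in AIA over Control that did not pass (adjusted p = 0.166), and had -1.06 in 10 libraries and -0.29 against Control 16 alone. Adam17, the enzyme that sheds TNF, had 0.60 (adjusted p = 0.168), and 0.31 and 0.40 in those fits.

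Of 14 tested TNF target genes of inflammation, 4 rose in AIA over Control and none fell, with a median of 1.11. Mmp3, a matrix metalloproteinase of inflamed joints, had 41.0 and 47.9 FPKM in Acu 6 and Acu 28. It had 35.9, 143, 43.1 and 78.6 FPKM in AIA 5, 10, 31 and 38, against 12.2 and 2.26 FPKM in Control 15 and Control 16. It rose in AIA by 3.32 (SE 0.68, adjusted p = 0.0184, limma) in 8 libraries and by 4.30 (SE 0.73, adjusted p = 0.0370) against Control 16 alone, and had 4.12 (adjusted p = 0.0999) in 10. Cxcl10, a chemokine induced by interferons and TNF, rose by 3.34 (SE 0.77, adjusted p = 0.0271), with AIA 38 highest at 77.4 FPKM and the other AIA libraries at 7.36 to 16 FPKM, against 0.567 and 1.49 FPKM in Control 15 and Control 16. Its fold change was 3.36 (adjusted p = 0.0643) in 10 libraries and 2.99 (adjusted p = 0.229) against Control 16 alone. Ptgs2, the inducible cyclooxygenase, had 1.0 and 1.22 FPKM in Acu 6 and Acu 28 and 2.68, 2.31, 1.59 and 2.20 FPKM in AIA 5, 10, 31 and 38, against 0 and 0.0989 FPKM in Control 15 and Control 16. It rose by 1.59 (SE 0.24, adjusted p = 0.00654) in 8 libraries and had 1.52 (adjusted p = 0.0531) against Control 16 alone. In all 10, where it had 4.43 FPKM in the library labelled Acu 4 and 13.7 FPKM in the library labelled Control 17, its fold change was 0.33 (adjusted p = 0.826). Tnfaip2, a gene found by its induction by TNF, rose by 1.26 (adjusted p = 0.0474) in 8 libraries, had 0.76 (adjusted p = 0.354) against Control 16 alone and turned to -0.59 (adjusted p = 0.792) in 10. The median of the list was 0.58 in 10 libraries and 0.77 against Control 16 alone. Neutrophil markers averaged 1.84 and 2.93 in Acu 6 and Acu 28 and 2.16 to 4.59 in AIA, against 0.61 and 0.70 in Control 15 and Control 16, and macrophage, monocyte and dendritic cell markers differed between the groups as given for Tnfsf13b. Their part in these values was not tested.

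None of the 13 tested genes of the canonical NF-kB subunits and feedback inhibitors passed, with a median of 0.78. Rel, an NF-kB subunit of lymphocytes, had 1.5 (SE 0.49, adjusted p = 0.0811, limma), Nfkbie, an inhibitor of NF-kB, had 2.16 (SE 0.71, adjusted p = 0.0819), and Cyld, a deubiquitinase that limits NF-kB, had 0.83 (adjusted p = 0.0842). In 10 libraries the 3 genes had 1.48, 2.59 and 0.49, and against Control 16 alone 0.55, 0.60 and 0.63, in the same order. None of the 8 genes of the noncanonical pathway, which the lymphotoxin beta, BAFF and RANK receptors use, passed either, and their median was 0.78. Tnfrsf14, a receptor for LIGHT and lymphotoxin alpha, had 1.12 (SE 0.37, adjusted p = 0.0828), Traf3ip3 had 1.93 (adjusted p = 0.209) and Traf3, the adaptor that holds the pathway in check, had 0.79 (adjusted p = 0.209). In 10 libraries these had 1.27, 2.35 and 0.68, and against Control 16 alone 0.67, -0.18 and 0.09, so Traf3ip3 turned when Control 15 was left out. Against Control 16 alone the medians of the canonical and noncanonical lists were 0.19 and -0.09.

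Of 11 tested genes on the list of stroma and vessels maintained by lymphotoxin, 1 rose in AIA over Control. The median of 1.90 was the highest of the lists. Cr2 and Fcer2a of this list are also B cell markers, which averaged 0.51 in Control 15 and 6.14 in Control 16. The part of these genes in the median was not tested. Vcam1, an adhesion molecule of stroma and endothelium, had 29.5 and 25.3 FPKM in Acu 6 and Acu 28. It had 24.7, 26, 20.9 and 40.5 FPKM in AIA 5, 10, 31 and 38, against 3.58 and 5.27 FPKM in Control 15 and Control 16. It rose by 2.39 (SE 0.34, adjusted p = 0.00494, limma) in AIA and by 2.39 (SE 0.39, adjusted p = 0.0199) in Acu, and by 2.13 (adjusted p = 0.0467) in AIA against Control 16 alone. Acu over Control 16 alone was 2.14 (adjusted p = 0.119). In all 10 libraries it was 2.85 in AIA (adjusted p = 0.0998) and 1.62 in Acu (adjusted p = 0.711). The median of the list was 2.71 in 10 libraries and 0.22 against Control 16 alone. Ccl21a, a chemokine of the T cell zone, ran between 0.947 and 62.3 FPKM within AIA and did not pass (2.61, SE 1.21, adjusted p = 0.188, and 2.78 in 10 libraries and 2.10 against Control 16 alone). Madcam1, an adhesion molecule of vessels, had 0.85 (adjusted p = 0.199), and 0.89 and 0.27 in those fits. A near-identical copy of Ccl21a on an unplaced scaffold makes its level uncertain. The copy had 93.9 and 120 FPKM in Acu 6 and Acu 28. It had 258, 92.4, 85.4 and 79.9 FPKM in AIA 5, 10, 31 and 38. Control 15 and Control 16 had 0 and 67.3 FPKM of the copy, against 0 and 0.967 FPKM of the Ccl21a gene that was tested.

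Of 12 tested other genes of the BAFF and APRIL axis, 3 rose in AIA over Control, with a median of 1.43. Tnfrsf17 (BCMA), the receptor of plasma cells for both ligands, had 5.39 and 2.38 FPKM in Acu 6 and Acu 28. It had 7.70, 14.7, 6.08 and 5.99 FPKM in AIA 5, 10, 31 and 38, against 0.373 and 0.318 FPKM in Control 15 and Control 16. It rose by 2.75 (SE 0.42, adjusted p = 0.00634, limma), and its fold change was 2.86 (adjusted p = 0.0546) in 10 libraries and 2.77 (adjusted p = 0.0551) against Control 16 alone. Sdc1, the plasma cell proteoglycan that binds APRIL, rose by 1.93 (SE 0.44, adjusted p = 0.0268), had 1.71 (adjusted p = 0.0715) in 10 libraries and rose by 2.53 (adjusted p = 0.0431) against Control 16 alone. Plcg2, an enzyme of B cell receptor signalling, rose by 2.73 (SE 0.70, adjusted p = 0.0387), and had 2.74 (adjusted p = 0.110) in 10 libraries and 1.25 (adjusted p = 0.215) against Control 16 alone. B cell markers stood at 0.51 in Control 15, and their part in the value of Plcg2 was not tested. Tnfrsf17 and Sdc1 are also plasma cell markers. The 8 plasma cell markers averaged 6.14 and 5.05 in Acu 6 and Acu 28 and 5.80 to 6.01 in AIA, against 2.15 and 2.63 in Control 15 and Control 16, and their part in these values was not tested.

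Of 12 tested other genes of the RANK axis and osteoclasts, 1 rose in AIA over Control, with a median of 0.74. It was Csf1r, the receptor for macrophage colony-stimulating factor, at 1.27 (SE 0.31, adjusted p = 0.0329, limma). It had 0.69 (adjusted p = 0.359) in 10 libraries and 1.24 (adjusted p = 0.155) against Control 16 alone. Dcstamp, which osteoclast precursors need to fuse, had 1.45 (adjusted p = 0.0632), 1.46 in 10 libraries and 1.54 against Control 16 alone. Nfatc1, the transcription factor that RANK signalling induces in osteoclasts, had 1.02 (adjusted p = 0.122), and 1.3 and 0.49 in those fits. Among 6 tested other ligands Tnfsf8, the CD30 ligand, rose by 2.0 (SE 0.46, adjusted p = 0.0262), and had 2.26 (adjusted p = 0.0987) in 10 libraries and 1.13 (adjusted p = 0.165) against Control 16 alone. Tnfsf9, the ligand of 4-1BB, had 1.40 (adjusted p = 0.121), turned to -0.67 in 10 libraries and had 0.50 against Control 16 alone. Tnfsf4, the OX40 ligand, had 0.73 (adjusted p = 0.149), and 0.11 and 0.54 in those fits. Among 13 tested other receptors Tnfrsf9 (4-1BB), a costimulatory receptor of activated T cells, rose by 2.23 (SE 0.61, adjusted p = 0.0463) in 8 libraries, turned to -0.08 (adjusted p = 0.981) in 10 and had 1.89 (adjusted p = 0.331) against Control 16 alone. Tnfrsf18 (GITR) and Tnfrsf4 (OX40), receptors of activated and regulatory T cells, had 1.78 and 2.17 (adjusted p = 0.0702 and 0.145), 1.62 and 2.68 in 10 libraries, and 0.63 and 0.27 against Control 16 alone. Tnfrsf9 had 190 and 251 FPKM in the library labelled Acu 4 and the library labelled Control 17, against at most 26.3 FPKM elsewhere. Tnfsf9 had 64.1 and 136 FPKM in the same libraries, against at most 7.24 FPKM elsewhere.

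No gene of these lists fell in AIA over Control in the fits of 10 and 8 libraries, where 2 of 17010 and 1478 of 16068 genes fell. None was called between Acu and AIA in those fits, beside 0% of all genes. In all 10 libraries none was called in any comparison, beside 0.0235% of all genes between AIA and Control and 0% in the others. Between Acu and Control in 8 libraries Tnfrsf1b and Vcam1 alone were called, beside 4.39% of all genes. Against Control 16 alone Atp6v0d2, a proton pump subunit of osteoclasts and macrophages, had 3.0 in AIA. Atp6v0d2 had 1.47 (adjusted p = 0.243) in 8 libraries and -0.13 (adjusted p = 0.959) in 10. In Acu minus AIA the medians of the lists in 8 libraries ran from -0.40 for the TNF targets to 0.35 for the noncanonical pathway, beside 0.06 over all genes.

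**Figure D5:**
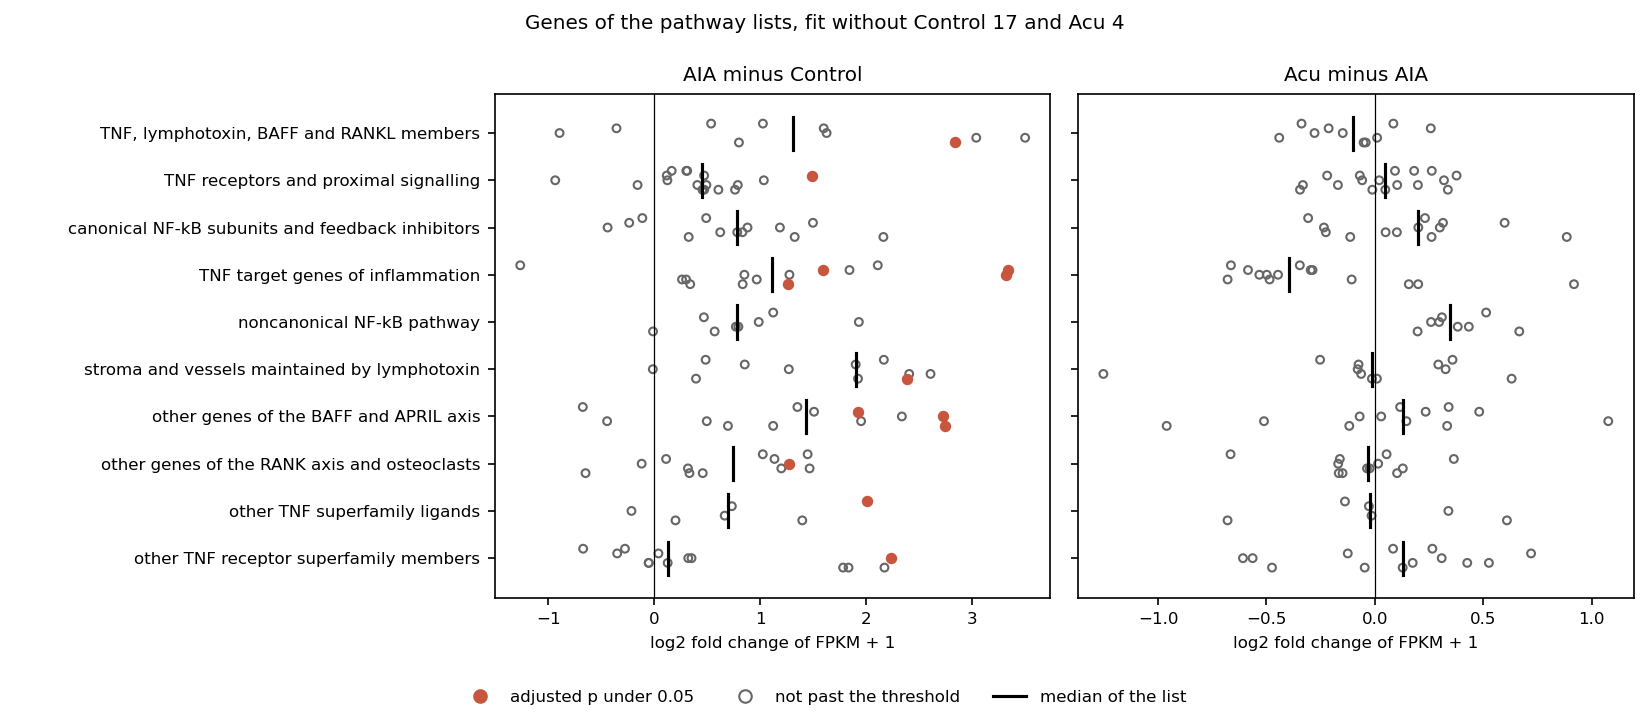
Log2 fold change of FPKM + 1 of each tested gene of the members and the 9 pathway lists, for AIA minus Control and Acu minus AIA, in the fit of 8 libraries; filled points passed an adjusted p of 0.05 in limma and vertical bars are the median of each list. Filled points appear for AIA minus Control alone, all on the higher side, and the stromal list has the highest median, at 1.90.

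Across the 10 libraries, 7 of the genes (Tnf, Lta, Ltb, Tnfsf13b, Tnfrsf13b, Tnfrsf13c and Tnfsf11) varied together, and the points share the same split into libraries rich and poor in lymphocyte genes. Pearson's r of log2(FPKM + 1) was 0.994 between Ltb and Tnfrsf13c, 0.99 between Tnfrsf13b and Tnfrsf13c and 0.959 between Tnf and Lta (n = 10 libraries). Ltbr ran against Ltb, at -0.914. Among 11550 named protein-coding genes of at least 1 FPKM on average, the gene most like Ltb was Map4k1 (r = 0.999), a kinase of blood cells, and the gene most like Tnfrsf13b was Btk (0.999), the kinase of B cell receptor signalling. Tnfrsf13c was most like Pold1 (0.997), a DNA polymerase subunit, and Tnfsf11 most like Bank1 (0.989) and Pax5 (0.988), both B cell genes. Tnfsf13b was most like H2-Ab1 (0.993), a class II antigen presentation gene. Tnf was most like Abcg3 (0.987) and H2-Q4 (0.985), and Lta most like Srpk3 (0.991) and Arhgap45 (0.983). Ltbr was most like St3gal4 (0.984), Tnfsf13 most like Dnase1l2 (0.967) and Tnfrsf11a most like Samhd1 (0.967) and Tnfrsf1b (0.956). The 8 libraries are part of the same 10, and among them Control 15 alone was poor in lymphocyte genes. Its B cell markers averaged 0.51, against 5.82 to 6.56 in the rest, so these r values also rest on that split. In 8 libraries Map4k1 and Btk stayed the most like Ltb and Tnfrsf13b, and for the other 8 members another gene took the first place. These were Cd79b for Tnfrsf13c (0.998), Crtam for Tnfsf13b (0.994), Lmo2 for Tnf (0.994) and Plaur for Tnfrsf11a (0.99). They were Zmynd15 for Lta (0.986), Kifap3 for Ltbr (0.984), Clu for Tnfsf11 (0.979) and Stk19 for Tnfsf13 (0.953).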

How the data were processed

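The authors deposited FPKM for 54987 genes in 10 libraries, with gene lengths, names and coordinates. Per the labels' protocols, RNA came from Trizol extraction and the library kit was NEBNext Ultra RNA. The tools named, per the submitters' processing notes, are DESeq2 1.16.1, HISAT2 2.0.5, featureCounts 1.5.0-p3 and StringTie 1.3.3b, with the build mm10 and no stated role. The use of strand was not given in the sources used here. Overlapping genes are therefore uncertain. The deposited FPKM times gene length were whole multiples of 1 step in each library (100% within 0.01 of a step), which gave back 13269763 to 18926894 reads per library; intervals and limits from reads cover counting error only.

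FPKM were scaled by the median of ratios, with a factor of 1 in each of the 10 libraries. The deposited values therefore already stood on that scale over all 10 libraries. The library size that the FPKM steps imply was not the number of recovered reads. It was 2.03e+07 against 16391068 reads in Acu 6 and 1.54e+07 against 18731698 reads in the library labelled Control 17. The log2(FPKM + 1) of genes with at least 0.5 FPKM in at least 3 libraries was fitted by limma 3.58.1 (R 4.3.3). The fit used a variance trend over all groups. The pseudocount of 1 understates the change of low genes. P-values were adjusted by Benjamini and Hochberg over all genes tested, at a threshold of 0.05. SE is limma's moderated standard error. Subsets of libraries were rescaled, filtered and fitted anew, so 16068 genes were tested in 8 libraries and 15652 in 7. The fit was tested on simulated data.

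The members and lists were chosen with earlier results of these data known. Named genes are all members, the 3 genes of smallest p in each pathway list without the libraries labelled Acu 4 and Control 17, the 1 or 2 genes most like each member, and overlapping genes; Tnfrsf11b, Tnfaip2 and Atp6v0d2, and Tnfsf9 and Tnfrsf9 in all libraries, were described after their values were seen. Camlg is not analysed here. Sequences are from RefSeq (GRCm38.p6), and member coordinates matched GENCODE M21. A sham acupuncture group named in the labels was not analysed here. Whether every library came from a separate mouse is not labelled, so p-values cover only the spread between libraries, which may be technical. Python 3.11.15 was used for tables and figures. Alternatives tried were a pseudocount of 0.1, no filter, deposited scaling, array weights, voom on recovered reads, the compared groups only, and libraries left out; those on the fit of 8 libraries were chosen after seeing the data.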

Additional observations from a re-analysis of the deposited data

Results flagged for a closer look

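Ltb in AIA 10 stood far from the other AIA libraries. It had 424 FPKM there, and the nearest other AIA library had 221 FPKM. The gap took 0.979 of the whole range of the group, above Dixon's 95% critical value for 4 libraries. Each of the 10 genes was tested in this way in the AIA group, and chance flags about 1 in 20 groups. AIA 10 also had the fewest genes above 0, 15116, and the fewest recovered reads, 13269763, and their part in the value was not tested.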

How the results depend on the processing

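Of 539 fold changes of members under the alternatives to the fit of 10 libraries, 511 kept their direction and their side of the threshold, 10 passed it and 18 changed sign, and 23 of the 30 pairs of member and comparison had no change of sign. Of 261 in refits of the 8 libraries, 228 kept both, 14 passed, 6 no longer passed and 13 changed sign. Among the 539, those with deposited scaling could only be kept. The scaling factor was 1 in every library, so that fit repeated the fit of 10 libraries. Genes called between AIA and Control numbered 0 with a pseudocount of 0.1, 1 with no filter, 3319 with array weights, 0 by voom, 2167 in 8 libraries, 485 in 7 and 784 with the compared groups only, and 0 to 1707 with 1 library left out (1707 when the library labelled Acu 4 was left out, 958 for the library labelled Control 17, 8 or fewer otherwise), against 4 as reported. Members called there numbered 5 with array weights, 1 in 8 libraries and 0 to 3 with 1 library left out (3 without the library labelled Acu 4). Leaving out 1 more of the 8 libraries gave 0 to 8 members for AIA minus Control and 0 to 7 for Acu minus Control, the highest in both without Control 16, where 2896 and 2070 of 15591 genes were called; over these fits 485 to 3386 and 0 to 2070 genes were called. Genes called between Acu and AIA numbered 2 with no filter, 98 with array weights and 0 to 1 with 1 library left out. Between Acu and Control 1 was called with no filter, 2067 with array weights, 706 in 8 libraries and 0 to 299 with 1 left out (299 without the library labelled Control 17, 85 without the library labelled Acu 4), and 1 member was called with array weights.

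Lta changed sign against Control 16 alone in AIA minus Control (-1.18) and in Acu minus Control (-1.22), and ran from -0.43 to 1.80 in Acu minus Control with 1 library left out. Tnf in Acu minus Control was -0.19 in 7 libraries. Tnfrsf11a in AIA minus Control ran from -0.014 to 0.54 with 1 left out. In Acu minus AIA, Ltb was 0.010 in 8 and 0.011 in 7 libraries (-3.53 to 0.0080 with 1 left out), and Ltbr was -0.15 in 8 and -0.15 in 7 (-0.15 to 0.67). Tnfsf13 in Acu minus Control was -0.062 with array weights, -0.10 in 8 and -0.14 in 7 libraries (-0.015 to 0.50 with 1 left out). Against the fit of 8 libraries, Acu minus AIA turned without Acu 6 for Tnf (0.33) and Lta (0.41), without AIA 5 or AIA 31 also for Lta (0.034 and 0.0085), by array weights for Ltbr (0.14), and with 1 left out for Ltb (-0.27 to 0.29), and Tnfsf13 in Acu minus Control was 0.027 without Acu 6. The cause was not tested. Tnfsf13 did not pass the filter in every fit that left out libraries, and there it has no value. Its reads limit its precision. No paired analysis was possible because the groups share no replicate number.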
